A study of Bos taurus and Capra hircus with 9 samples.

Results

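The miR-29 family was followed in small RNA sequencing of milk-derived extracellular vesicles (EVs) from goats and cows. Entries were chosen by name alone, as bovine miRNAs called miR-29 followed by a letter from a to d, with or without an arm suffix. This gave 5 of the 296 entries of the deposited table, namely bta-miR-29a, bta-miR-29b, bta-miR-29c, bta-miR-29d-3p and bta-miR-29d-5p, written without their bta prefix from here on. The animals were 4 primiparous Alpine goats (17, 44, 79 and 127), sampled at 26 ± 9 days postpartum, and 5 Holstein Friesian cows (1, 2, 3, 20 and 62), sampled at 30 ± 7 days postpartum, with 1 library per animal. All milks were skimmed, depleted of cells and acidified before the vesicles were purified on a sucrose gradient, and goat milk received an additional acetic acid step. The 2 species were kept on different farms, so that species, breed, farm and the additional acid step cannot be told apart. Levels are TPM, the tags of an entry scaled to a common total of tags per library, written by the authors as whole numbers and counted on bovine miRBase entries in both species.

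miR-29 miRNAs are short RNAs that guide the silencing complex to messenger RNAs through their seed, the stretch of bases 2 to 8. They are best known as repressors of extracellular matrix genes, among them the fibrillar collagens, elastin and fibrillin, and their level falls in fibrosis of several organs. They also act on the de novo DNA methyltransferases, in human cells and in bovine mammary epithelial cells. In the bovine genome the genes lie in pairs. In the ARS-UCD2.0 assembly of RefSeq the nearest miRNA gene of MIR29A was MIR29B-1, that of MIR29C was MIR29B-2, and that of MIR29D was MIR29E, and each of these relations was mutual. Since mature miR-29b can be cut from the product of either MIR29B-1 or MIR29B-2, its level adds up both sources.

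The mature sequences of the table are shown here because the members differ by few bases and are counted as separate entries. Capitals mark bases 2 to 8 of each deposited sequence.
miR-29a: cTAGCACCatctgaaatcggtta
miR-29b: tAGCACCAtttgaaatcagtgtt
miR-29c: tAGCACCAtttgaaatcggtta
miR-29d-3p: tAGCACCAtttgaaatcgatta
miR-29d-5p: tGACCGATttctcctggtgtt

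miR-29c, miR-29b and miR-29d-3p shared the seed AGCACCA, which 3 of the 296 entries (1.01%) carried at bases 2 to 8. The deposited miR-29a begins with an additional C, so that its bases 2 to 8 read TAGCACC and AGCACCA starts at base 3. No entry other than miR-29a had TAGCACC at bases 2 to 8, and the 4 entries that held AGCACCA at any position were miR-29a and these 3. Counted from the 5′ end of miR-29c, miR-29a differed from it by 1 substitution (T10C), in addition to the extra C. miR-29d-3p also differed from miR-29c by 1 substitution (G19A). miR-29b differed by 3 substitutions (G18A, T21G and A22T) and by 1 more base at the 3′ end. Its last 6 bases, AGTGTT, match the element that directs miR-29b to the nucleus in human cells, and miR-29b was the only entry of the table to end with them. miR-29d-5p is named as the opposite arm of the miR-29d hairpin and has an unrelated seed. Whether another hairpin of the family also gives this sequence was not tested. Reads of 1-base neighbours can be exchanged when mismatches are allowed in mapping, and whether this happened between miR-29a, miR-29c and miR-29d-3p was not tested. Whether the goat sequences equal the bovine ones was not tested either.

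The first question is how much of each member the vesicles of each species held. miR-29a dominated in every animal, and miR-29b and miR-29c, scarcer in both species, were the members that differed clearly. miR-29b and miR-29c were lower in goats than in cows, with goat means 0.302 and 0.278 times the cow means and no overlap between the animals. miR-29a and miR-29d-5p did not pass the test between species. miR-29d-3p was at the lower end of what the table can show.

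miR-29a reached 610, 400, 500 and 393 TPM in goats 17, 44, 79 and 127. In cows 1, 2, 3, 20 and 62 it reached 503, 692, 455, 369 and 667 TPM. Values of the 2 species overlapped, with cow 20 below all goats and cows 2 and 62 above all of them. Goats averaged 476 ± 102 TPM (SD, n = 4), cows 537 ± 139 TPM (SD, n = 5), at rank 45 of the 296 entries in goats and rank 39 in cows. Differences between species were tested with limma on log2(TPM + 1) for the 217 entries that exceeded 1 TPM in 4 or more libraries, and the p-values were adjusted over all of them (Benjamini-Hochberg). For miR-29a the log2 difference, goat minus cow, was -0.16 (standard error 0.26, 95% interval -0.71 to 0.40, adjusted p = 0.614, limma). The interval leaves room for a level lower or higher in goats.

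miR-29b stood at 42, 20, 25 and 30 TPM in goats 17, 44, 79 and 127, against 103, 130, 102, 71 and 79 TPM in cows 1, 2, 3, 20 and 62. The highest goat (17) stayed below the lowest cow (20). Goats averaged 29.2 ± 9.43 TPM (SD, n = 4), cows 97.0 ± 23.2 TPM (SD, n = 5). It ranked 119 in goats and 71 in cows. The log2 difference, goat minus cow, was -1.71 (standard error 0.29, 95% interval -2.33 to -1.10, adjusted p = 9.88e-05, limma).

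miR-29c, which differs from miR-29a by the substitution given above, had 20, 11, 17 and 20 TPM in goats 17, 44, 79 and 127. Cows 1, 2, 3, 20 and 62 had 49, 87, 59, 46 and 65 TPM. The highest goats (17 and 127) were again below the lowest cow, which was cow 20. Goats averaged 17.0 ± 4.24 TPM (SD, n = 4), cows 61.2 ± 16.3 TPM (SD, n = 5), which placed it at rank 134 for goats and rank 81 for cows. The log2 difference was -1.79 (standard error 0.29, 95% interval -2.41 to -1.17, adjusted p = 7.28e-05, limma). Such differences were frequent in the whole table, where 52 of the 217 tested entries (24.0%) were lower in goats, 81 (37.3%) were higher, and 133 (61.3%) passed in either direction. Every goat lay below every cow for 44 of the 217 entries (20.3%). Besides miR-29b and miR-29c, miR-29d-3p was called lower, but its direction was fixed by the filter, as given with its values, and it lost the call in an exact permutation test and was not tested under stricter filters, which left a count of 2. Nothing is read from this count against that background.

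**Figure D1:**
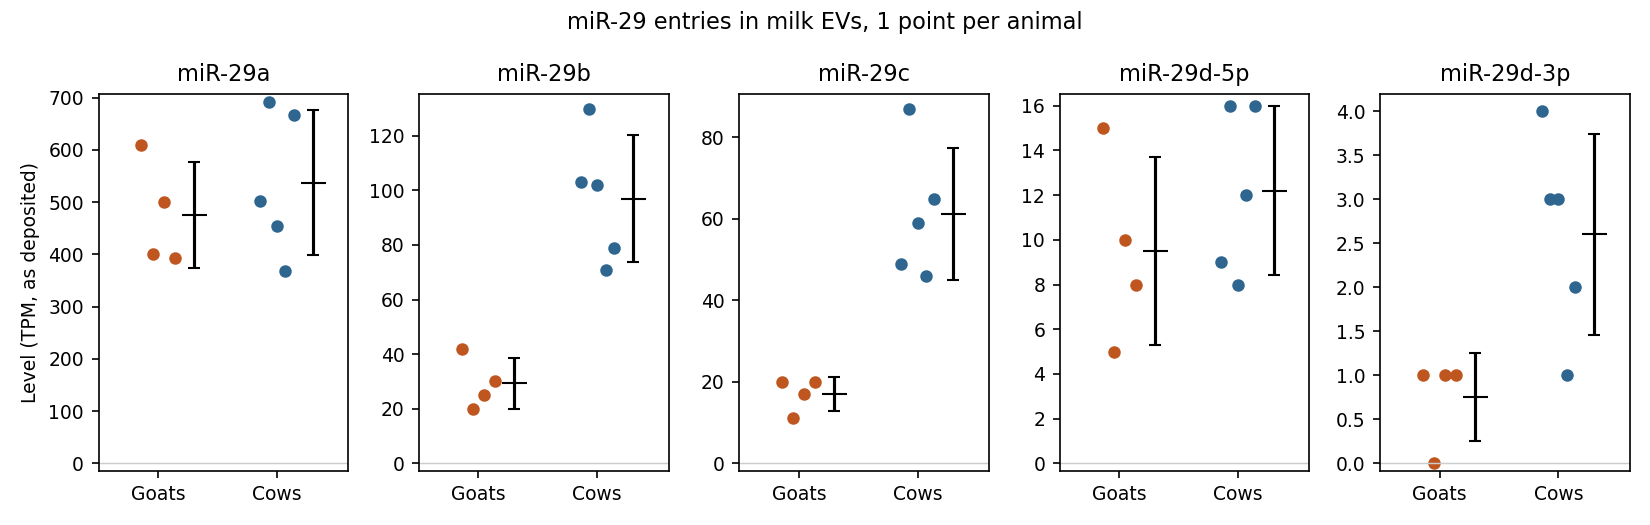
Level of each miR-29 entry in TPM (y axes, linear, with a scale of their own per panel) in milk EVs of 4 goats and 5 cows; each point is an animal, and the black mark and bar beside the points give the mean and SD of the species. For miR-29b the goats lay between 20 and 42 TPM and the cows between 71 and 130 TPM, whereas for miR-29a the species overlapped.

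The 2 entries named after miR-29d were scarce. miR-29d-5p was found at 15, 5, 10 and 8 TPM in goats 17, 44, 79 and 127, and at 9, 16, 8, 12 and 16 TPM in cows 1, 2, 3, 20 and 62. The species overlapped over most of their range. The goat mean was 9.50 ± 4.20 TPM (SD, n = 4), the cow mean 12.2 ± 3.77 TPM (SD, n = 5), and the log2 difference was -0.37 (standard error 0.34, 95% interval -1.10 to 0.36, adjusted p = 0.352, limma). miR-29d-3p, which carries the family seed, was listed at 1, 0, 1 and 1 TPM in goats 17, 44, 79 and 127, and at 4, 3, 3, 1 and 2 TPM in cows 1, 2, 3, 20 and 62. Cow 20 and 3 goats shared the value of 1 TPM. Its log2 difference was -1.03 (standard error 0.32, adjusted p = 0.0121, limma), but it passed the filter through 4 cows and 0 goats, which fixed its direction. In an exact permutation test over the animals, adjusted over the 217 entries, miR-29d-3p did not pass (adjusted p = 0.0678). The 5p entry was above the 3p entry in each of the 9 animals, although the 3p entry is the one that holds the seed of the family. Whether all tags of miR-29d-5p came from the miR-29d hairpin was not tested. The use of the 2 arms of that hairpin can therefore not be read from these values.

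**Figure D2:**
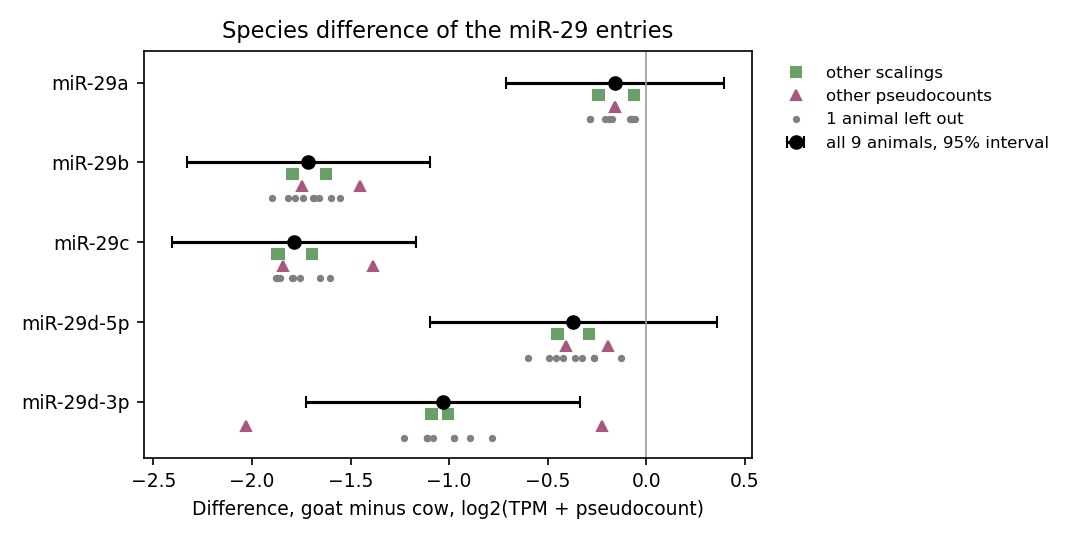
Difference between species of each miR-29 entry, goat minus cow, on the log2(TPM + pseudocount) scale (x axis); black points and bars give the value from all 9 animals with its 95% interval, and the symbols under them the values with other scalings (squares), other pseudocounts (triangles) or 1 animal left out (dots). miR-29b and miR-29c, at -1.71 and -1.79, stayed away from 0 in all of these, while the intervals of miR-29a and miR-29d-5p included 0 and miR-29d-3p, near 0 TPM in goats, moved most with the pseudocount.

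The TPM of the listed miRNAs add up to between 23.9% and 42.0% of the total to which a library is scaled, and the rest was not analysed. As a share of the listed miRNAs alone, miR-29a came to 0.150%, 0.157%, 0.135% and 0.164% in goats 17, 44, 79 and 127, and to 0.120%, 0.169%, 0.162%, 0.138% and 0.218% in cows 1, 2, 3, 20 and 62. The goats then lay within the range of the cows. miR-29b and miR-29c remained without overlap on that scale, miR-29b at 0.00676% to 0.0125% in goats and 0.0245% to 0.0364% in cows, and miR-29c at 0.00432% to 0.00836% in goats and 0.0117% to 0.0213% in cows. The number of reads per library is not kept in TPM, so the counting error of these values is unknown.

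The summed level of the family overlapped between species, while its composition, which does not depend on how libraries were scaled, was set apart. The 5 entries added up to 688, 436, 553 and 452 TPM in goats 17, 44, 79 and 127, and to 668, 928, 627, 499 and 829 TPM in cows 1, 2, 3, 20 and 62. On average the sum was 532 ± 116 TPM for goats (SD, n = 4), against 710 ± 169 TPM for cows (SD, n = 5), and the species overlapped. As a share of the listed miRNAs, the family took 0.170 ± 0.0161% in goats and 0.214 ± 0.0427% in cows, again with overlap. miR-29a made up 88.7%, 91.7%, 90.4% and 86.9% of the sum in goats 17, 44, 79 and 127. In cows 1, 2, 3, 20 and 62 it made up 75.3%, 74.6%, 72.6%, 73.9% and 80.5%. Each goat thus had a larger share of miR-29a than each cow, with means of 89.4 ± 2.09% for goats (SD, n = 4) against 75.4 ± 3.02% for cows (SD, n = 5). miR-29b took 5.46 ± 1.07% in goats and 13.9 ± 2.60% in cows, and miR-29c took 3.23 ± 0.83% in goats and 8.64 ± 0.98% in cows, both without overlap. The share of miR-29d-5p was 1.73 ± 0.43% in goats and 1.74 ± 0.46% in cows. miR-29d-3p stayed under 1% in every animal, at 0 to 0.22% in goats and 0.20 to 0.60% in cows. These shares are given as a description, with no test.

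**Figure D3:**
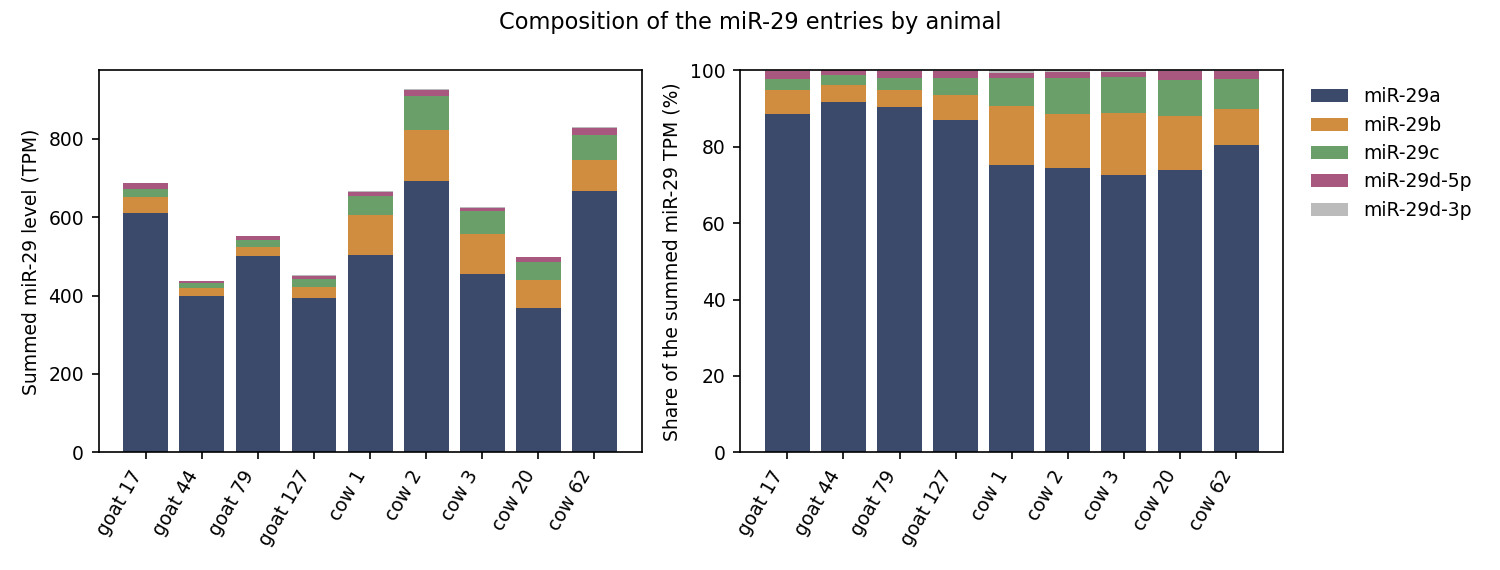
Summed level of the 5 miR-29 entries in TPM (left) and the share of each entry in that sum in percent (right) for each animal, goats on the left and cows on the right of each panel. miR-29a filled 86.9% to 91.7% of the sum in goats and 72.6% to 80.5% in cows, whereas the height of the sum overlapped between the species.

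Whether the members moved apart was tested on ratios within a library. The scaling of the library drops out of the plain percentages, but not wholly out of the tested log2 ratios, which carry a pseudocount of 1. miR-29b amounted to 6.89%, 5.00%, 5.00% and 7.63% of miR-29a in goats 17, 44, 79 and 127, against 20.5%, 18.8%, 22.4%, 19.2% and 11.8% in cows 1, 2, 3, 20 and 62. Cow 62 was the lowest cow and was still above the highest goat. On the log2(TPM + 1) scale the ratio of miR-29b over miR-29a differed by -1.56 (goat minus cow, two-sided exact permutation test, p = 0.00794, adjusted over the 3 ratios tested p = 0.0119), lower in each of the 4 goats than in any cow. This p is the smallest that 4 animals against 5 can give. miR-29c amounted to 3.28%, 2.75%, 3.40% and 5.09% of miR-29a in goats 17, 44, 79 and 127, against 9.74%, 12.6%, 13.0%, 12.5% and 9.75% in cows 1, 2, 3, 20 and 62. Here too the species did not overlap. The log2 ratio of miR-29c over miR-29a differed by -1.63, goat minus cow, with the same exact permutation p of 0.00794 (adjusted p = 0.0119). Without a pseudocount, a setting added after seeing the data, the differences were -1.59 for miR-29b and -1.69 for miR-29c over miR-29a, with the same adjusted p in the exact permutation test. For miR-29b over miR-29c the log2 ratio averaged 0.73 ± 0.24 for goats (SD, n = 4; 0.53 to 1.03) and 0.66 ± 0.29 for cows (SD, n = 5; 0.28 to 1.06). The difference of 0.07, whose sign changed with a pseudocount of 10, did not pass (two-sided exact permutation test, p = 0.706, adjusted p = 0.706), which does not show that the ratio is equal in the 2 species.

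**Figure D4:**
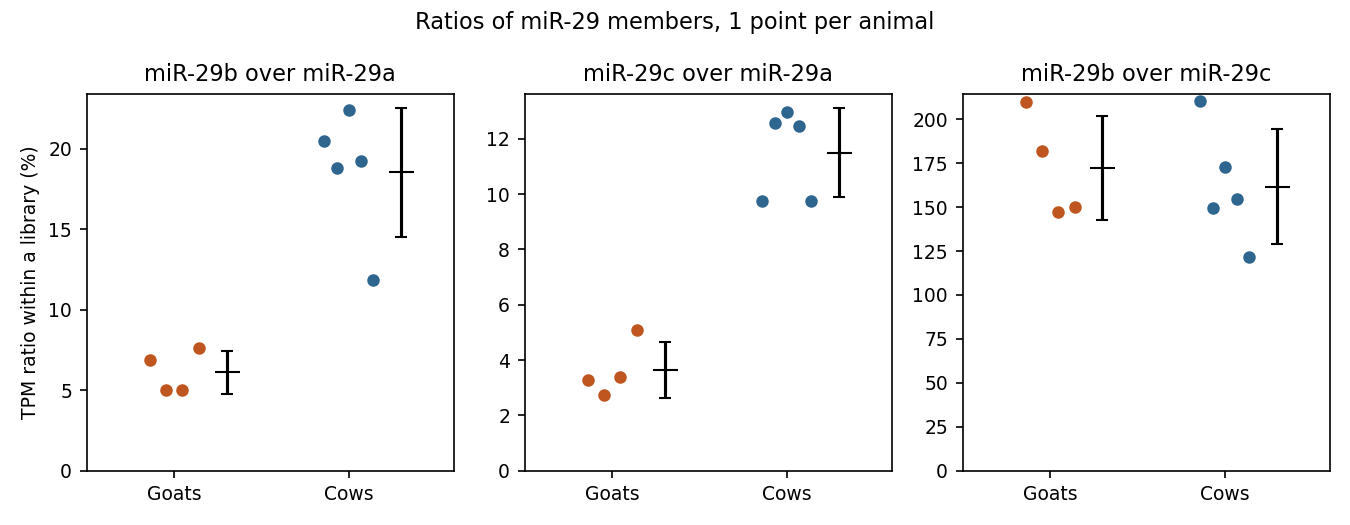
TPM of 1 miR-29 member as a percent of the TPM of another in the same library (y axes, linear from 0), for goats and cows; each point is an animal, with the mean and SD beside it. Goats lay between 5.00% and 7.63% for miR-29b over miR-29a, cows between 11.8% and 22.4%, and for miR-29b over miR-29c the species overlapped.

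In TPM, animals of a species differed among themselves by less than 2-fold for the abundant member, and by somewhat more for miR-29b in goats. The highest goat exceeded the lowest by 1.55 times for miR-29a, 2.10 times for miR-29b and 1.82 times for miR-29c. Among cows these ratios were 1.88 for miR-29a, 1.83 for miR-29b and 1.89 for miR-29c. Goat 17 was the highest goat for miR-29a, miR-29b and miR-29d-5p, and for miR-29c it shared the highest value with goat 127. Cow 20 was the lowest cow for miR-29a, miR-29c, miR-29b and miR-29d-3p, but not for miR-29d-5p. Goat 17 also had the largest listed miRNA total of the goats, and cow 20 the smallest of the cows. As a share of the listed miRNAs, goat 127 was instead the highest goat for miR-29a (0.164%), miR-29b (0.0125%) and miR-29c (0.00836%). Cow 1 was then the lowest cow for miR-29a (0.120%), miR-29b (0.0245%) and miR-29c (0.0117%). Coefficients of variation were 21.4% in goats and 25.8% in cows for miR-29a, 32.2% and 23.9% for miR-29b, and 25.0% and 26.7% for miR-29c.

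Likeness of profiles was taken as the root mean square difference between log2(TPM + 1) values, each miRNA centred on its mean over the 9 libraries, among 163 other entries whose mean reached 10 TPM in either species. It is a description, and the 9 points fall into 2 species. miR-29b and miR-29c were close to each other, at 0.24, and further from miR-29a, at 0.83 for miR-29b and 0.85 for miR-29c. Both distances from miR-29a were below the median distance to the 163 entries, which was 1.14 for miR-29b and 1.18 for miR-29c. miR-29a ran closest to let-7a-3p (0.09) and miR-362-5p (0.13). let-7a-3p, the minor arm of a let-7 hairpin, had a goat mean of 73.8 ± 12.9 TPM (SD, n = 4) and a cow mean of 87.6 ± 26.9 TPM (SD, n = 5). Nearest to miR-29b were miR-1839 (0.28) and miR-660 (0.30), both further from it than miR-29c was. miR-660 had a goat mean of 425 ± 76.8 TPM and a cow mean of 1072 ± 211 TPM, and it was lower in goats (log2 difference -1.33, standard error 0.24, adjusted p = 1.83e-04, limma). miR-29c had miR-32 (0.33) and miR-141 (0.34) as nearest entries outside the family. miR-141, an epithelial miRNA of the miR-200 family, was lower in goats, with 399 ± 134 TPM there and 940 ± 239 TPM in cows (log2 difference -1.26, standard error 0.29, adjusted p = 0.00131, limma). For miR-29d-5p the nearest entries were miR-186 (0.25) and miR-340 (0.27).

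Other miRNAs linked to collagen production or fibroblast activation were taken from a list of 15 names, of which 6 had values here and 4 were tested. Of these 4, 1 was higher in goats, 1 was lower, with a direction fixed by the filter, and 2 did not pass, beside 61.3% of all tested entries that passed in either direction. miR-143, a miRNA of smooth muscle and fibroblasts, was higher, with a goat mean of 304 ± 87.1 TPM (SD, n = 4), a cow mean of 19.8 ± 4.09 TPM (SD, n = 5) and a log2 difference of 3.85 (standard error 0.27, adjusted p = 1.54e-08, limma). miR-34a, a target of p53, was lower, its goat mean being 0.75 ± 0.50 TPM and its cow mean 5.80 ± 4.32 TPM (log2 difference -1.81, standard error 0.41, adjusted p = 0.00128, limma), but it passed the filter through cows alone, which fixed its direction. miR-21-5p, which is raised in activated fibroblasts, did not pass, with a log2 difference of -0.04 (adjusted p = 0.935, limma) that changed sign after scaling to the listed miRNAs. miR-192, first tied to collagen in kidney cells, did not pass either, with means of 282 ± 90.1 TPM for goats and 263 ± 49.3 TPM for cows (adjusted p = 0.818, limma), and its log2 difference of 0.07 changed sign with 2 other scalings. miR-21-3p had a goat mean of 1.75 TPM and a cow mean of 0.80 TPM, and miR-145, at 1 to 2 TPM in goats, was listed at 0 in all 5 cows.

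**Figure D5:**
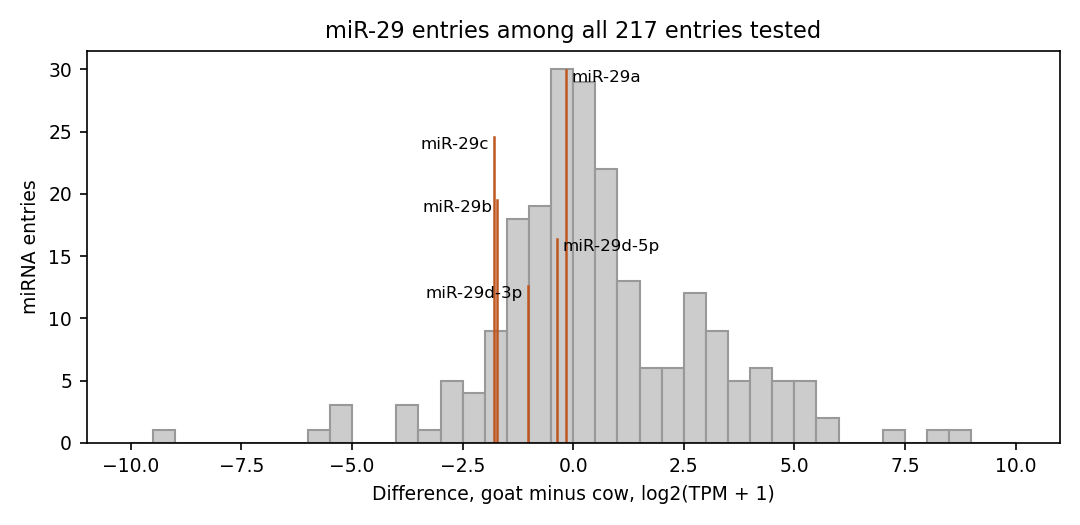
Number of miRNA entries (y axis) by their difference between species, goat minus cow, on the log2(TPM + 1) scale (x axis, bins of 0.5), for the 217 entries tested; the lines mark the 5 miR-29 entries and their heights carry no value. miR-29b and miR-29c lay at -1.71 and -1.79, within the range of many other entries, and miR-29a at -0.16.

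Among markers of the cell types that could release vesicles into milk, leukocyte markers were higher in goats, a direction the filter favoured for part of them. miR-143 of the stromal list was higher too, and in the epithelial list miR-141 was lower and miR-205 higher. The part of these markers in the miR-29 differences was not tested. Epithelial markers (miR-200a, miR-200b, miR-200c, miR-141, miR-429 and miR-205) summed to 26830 to 45365 TPM in goats and 30424 to 43532 TPM in cows. Of the 6 tested, 1 was higher, 1 lower and 4 did not pass, beside 37.3% higher and 24.0% lower among all tested entries. The higher one, miR-205, at 12 to 25 TPM in goats and 0 to 1 TPM in cows, owed its place in the test to the 4 goats, so that its direction was given by the filter. All 5 tested leukocyte markers of 6 were higher in goats, beside 37.3% of all tested entries, and the sum of the 6 ran from 366 to 1131 TPM in goats and from 16 to 49 TPM in cows. For miR-223, miR-142-5p and miR-150, 4 goats but only 2 cows exceeded 1 TPM. They passed the filter only with the goats, which favoured this direction. miR-155 and miR-342 exceeded 1 TPM in every animal. Stromal and endothelial markers, of which 3 of 7 had values, summed to 217 to 425 TPM in goats and 19 to 30 TPM in cows, most of it miR-143. Of the 2 tested there, miR-143 was higher, and miR-126-3p did not pass, with a goat mean of 1.00 TPM, a cow mean of 2.80 TPM and a log2 difference of -0.92 (adjusted p = 0.144, limma). Red blood cell markers, of which 2 of 3 had values, summed to 1 to 37 TPM in goats and 0 to 10 TPM in cows. In a vesicle preparation, fewer vesicles of a cell type and less of a miRNA per vesicle cannot be told apart.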

How the data were processed

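Small RNAs of milk EVs were sequenced from 4 goats and 5 cows, 1 library per animal, grouped by the sample titles. Libraries were made with a NEBNext kit and read on a NextSeq. After adapter trimming, the authors assigned tags to bovine entries of miRBase 20, also for goats. The mapper and the genome build were not given in the sources used here. As deposited, the score is the TPM of the authors, rounded to whole numbers, for 296 entries, with no read number per library. Listed entries summed to 239233 to 420029 TPM. No 2 libraries held identical values, and 0 columns were left unassigned.

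The species difference was fitted with limma 3.58.1 (R 4.3.3, variance trend) to log2(TPM + 1) of the 217 entries that exceeded 1 TPM in 4 or more libraries. Benjamini-Hochberg adjusted p-values under 0.05 were called. The model was tested on simulated data. Within-library ratios were tested by exact permutation of the animals, two-sided (Python 3.11, numpy). Members, lists and the rule for named miRNAs were chosen with earlier results of these data known. The rule named the members, the collagen-linked list and, for each member of at least 10 TPM, the 2 entries of nearest profile. Marker lists other than these are given as counts and sums, with values for some of their members. miR-29e was named after its values were seen. Alternatives were pseudocounts of 0.1 and 10, other filters, 3 other scalings, limma without a trend, exact permutation tests, and leaving out each animal with the 217 entries kept fixed. Gene neighbours came from RefSeq (ARS-UCD2.0), with no coordinates because the build of the values is not stated.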

Additional observations from a re-analysis of the deposited data

Results flagged for a closer look

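miR-29d-3p in goat 44 was listed at 0 TPM while the other 3 goats were listed at 1 TPM, so that this animal stood apart from its group by the whole range, which is a single TPM. The log2 ratio of miR-29b over miR-29a in cow 62 was -3.06, the lowest among the cows, with a gap to the next cow of more than 0.71 of their range. miR-29b was at 79 TPM and miR-29a at 667 TPM in that cow. Among the 28 sets of 4 or 5 animals examined in this way, chance alone marks about 1 in 20 if values are continuous and normally distributed. Whether they are was not tested. The sets share animals and members. For whole-number values such as 0 and 1 TPM, a single animal that differs from the rest is always marked.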

How the results depend on the processing

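miR-29b and miR-29c were lower in goats under all 10 other settings and in all 9 runs without 1 animal. The log2 difference of miR-29b ran from -1.80 to -1.45 over the settings and from -1.90 to -1.56 over the runs, that of miR-29c from -1.87 to -1.39 and from -1.88 to -1.60. miR-29a and miR-29d-5p did not pass under any of them. miR-29d-3p did not pass in the exact permutation test (log2 difference -1.03, adjusted p = 0.0678), and with a filter above 10 TPM, or above 0 in all libraries, it was not tested. The ratios of miR-29b and of miR-29c over miR-29a differed by -1.71 to -1.47 and by -1.80 to -1.52 without 1 animal, and by -1.29 and -1.23 with a pseudocount of 10. Since the species did not overlap, p without 1 animal was the smallest each smaller design allows, and says nothing of stability. That of miR-29b over miR-29c did not pass under any setting and turned to -0.065 with a pseudocount of 10, and it ran from -0.027 to 0.17 without 1 animal (main difference 0.07). The number of entries passing in the whole table was 133, and it was 80 with the filter above 10 TPM and 72 with that above 0 in all libraries, where fewer entries were tested. miR-192 turned to -0.016 with scaling to the listed total without miR-148a and to -0.0085 with median of ratios, and ran from -0.13 to 0.22 without 1 animal. miR-21-5p turned to 0.052 with scaling to the listed total and ran from -0.34 to 0.43, and miR-186 ran from -0.27 to 0.023. No paired analysis was possible because the goats and the cows were different animals, kept on different farms, with 1 library each. The read number of each library is unknown, so values of a few TPM, as for miR-29d-3p, are coarse.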

Other observations

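miR-29e, outside the letters a to d, was listed at 0 in all 4 goats and at 1 TPM in cows 2 and 62. Its deposited sequence differs from miR-29c at 1 base of the seed (C6T, counted from the 5′ end of miR-29c), and its gene is the nearest miRNA gene of MIR29D.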
